A study of Bos taurus with 6 samples.

Results

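A small set of CpGs was partially methylated in cattle sperm, monocytes and fibroblasts once the 2 libraries of each cell type were summed. Single libraries often were not, and all 6 lay between 25 and 75% at 18.0% of these CpGs. The 2735 CpGs described here were taken from the 950004 autosomal CpGs that were covered by 10 to 500 reads in all 6 reduced representation bisulfite sequencing (RRBS) libraries (CpGs 10-500), and made up 0.288% of them. A CpG was called intermediate in a cell type when 25 to 75% of the reads summed over its 2 libraries were methylated, and a member was intermediate in all 3 cell types. The choice rested on the methylation of every cell type, so levels between cell types are given as a description without a test.

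All samples came from Holstein cattle without any treatment. Sperm was taken from 1 commercial frozen semen straw per bull, monocytes were isolated from the blood of cows with beads against CD14, and fibroblasts were primary cultures from ear skin of adult heifers grown to passage 11. Each cell type had 2 libraries from different animals, amplified over 12 PCR cycles in the case of monocytes and 14 in the others. Sperm and somatic cells therefore also differed in the sex of the donors, and fibroblasts also differed from the other cells by culture. These factors cannot be told apart from cell type here.

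In mammals, DNA methylation is carried mostly by cytosines followed by guanine, and most CpGs are either methylated or unmethylated on nearly all DNA molecules of a cell type. An intermediate percentage is a mixture of methylated and unmethylated reads, and it can be read from a mixture of cells, from the parental copies of a gene in a somatic cell (as at imprinted loci, where only 1 parental copy carries the mark) or from similar copies of a sequence. A spermatozoon is haploid and holds a single copy of each autosome. Bisulfite turns unmethylated cytosine into uracil, which is sequenced as thymine, so that a thymine already present in the genome of an animal is counted as an unmethylated cytosine. Genotypes were not analysed here.

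The 6 libraries had a coverage that summed to between 45884839 and 78890776 over the positions listed, with a median of 9 to 14 reads per position. Over the CpGs 10-500, libraries of the same cell type correlated with Pearson's r of 0.950 to 0.986 and libraries of different cell types with r of 0.704 to 0.850, across CpGs that are not independent of each other. The labelled cell types were thus each closest to their own replicate. At the coverage of a typical member, 10 methylated reads of 20 gave an exact (Clopper-Pearson) 95% confidence interval from 27.2 to 72.8%. A single CpG in a single library is therefore known only roughly, and such intervals cover counting error only.

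Intermediate methylation was rare in sperm and common in fibroblasts. Of the CpGs 10-500, 40831 (4.30%) were intermediate in sperm, 67130 (7.07%) in monocytes and 182679 (19.2%) in fibroblasts. 705916 CpGs were intermediate in no cell type, 200271 in 1, 41082 in 2 and the 2735 members in all 3. Among the 31464 CpGs intermediate in both somatic cell types, 8.69% were also intermediate in sperm. Among the 5389 CpGs intermediate in sperm and monocytes, 50.8% were intermediate in fibroblasts, beside 19.2% of all CpGs 10-500. The count of members was set by the limits, with 818 members lying within 2 points inside a limit in some cell type and 783 other CpGs missing membership by 2 points or less in 1 cell type. Just inside, median methylation was 43.0% for sperm, 63.9% for monocytes and 48.3% for fibroblasts, and just outside it was 40.5, 69.2 and 51.9%.

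Members were higher in monocytes than in sperm or fibroblasts on average. Mean methylation of the members was 52.1% and 45.9% in sperm replicates 1 and 2, 54.8% and 56.1% in monocytes, and 49.5% and 49.4% in fibroblasts. The mean per cell type was 49.0% ± 4.32 (SD, n = 2) in sperm, 55.5% ± 0.915 in monocytes and 49.5% ± 0.0202 in fibroblasts. Libraries of monocytes did not overlap with the other 4, whereas the 2 fibroblast libraries lay between the 2 sperm libraries.

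A member seldom had the same level in the 3 cell types. The range over cell types had a median of 26.1 points and reached at most 50 points, which is the width the limits allow. It was under 10 points in 297 members (10.9%) and at least 25 points in 1451 (53.1%). Monocytes were highest in 1296 members (47.4%), sperm in 774 and fibroblasts in 650, with 15 ties.

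Intermediate levels of a cell type often hid libraries that were not intermediate. In 491 members (18.0%) all 6 libraries lay between 25 and 75%, and in 963 exactly 5 did. At least 1 library was at 10% or below or at 90% or above in 1100 members (40.2%). This depended on whether a member stood alone: 1820 members (66.5%) had no other member within 1000 bp and are called isolated, and 915 lay in runs of 2 or more. At least 1 extreme library was found in 919 isolated members (50.5%) and in 181 members in runs (19.8%). The plot of methylation by library shows the isolated members piling up at both ends of the scale, less so at the upper end in fibroblasts.

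**Figure D1:**
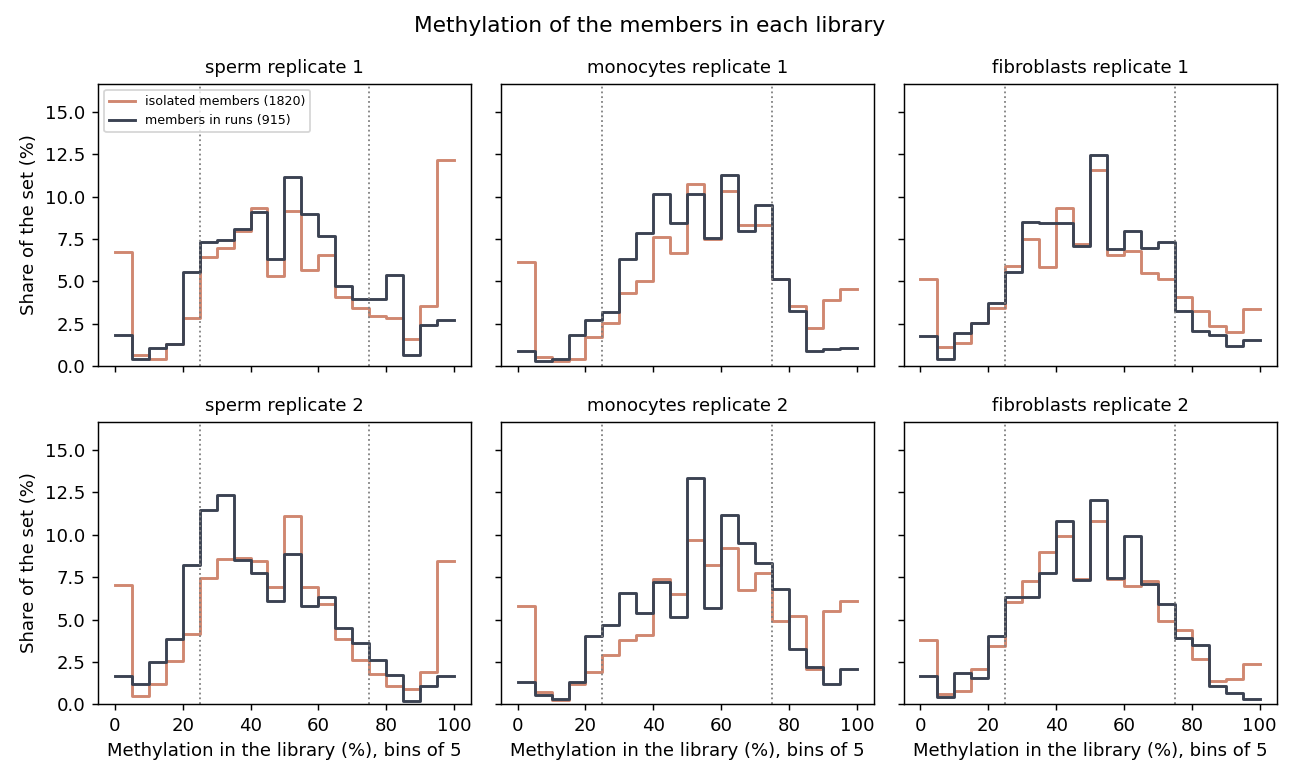
Share of isolated members and of members in runs (vertical axis, %) by methylation in each of the 6 libraries (horizontal axis, %, bins of 5), with the limits of 25 and 75% as dotted lines. In sperm replicate 1, 7.42% of isolated members were at 10% or below and 15.7% at 90% or above, against 2.30% and 5.14% of members in runs.

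In sperm replicate 1, 7.42% of the isolated members had at most 10% methylation, 65.9% had 25 to 75% and 15.7% had at least 90%. The corresponding shares were 7.69, 71.2 and 10.4% in sperm replicate 2. In monocytes they were 6.76, 73.2 and 8.46% for replicate 1 and 6.59, 67.4 and 11.6% for replicate 2. Fibroblasts had fewer values at the upper end, with 6.43, 72.4 and 5.38% in replicate 1 and 4.51, 77.6 and 3.85% in replicate 2. Few values fell between 10 and 25%, from 2.42 to 7.69% of isolated members over the libraries.

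The choice of members used the sum of the 2 libraries of a cell type and not the difference between them, so this difference could be tested. The members differed between the 2 animals of a cell type more often than other intermediate CpGs. Fisher's exact test on methylated and unmethylated reads was run at all CpGs 10-500, and a CpG was called when the Benjamini-Hochberg adjusted p was below 0.01 and the difference was at least 25 points. Among the members, 332 were called in sperm, or 12.1% with an exact 95% confidence interval of 10.9 to 13.4%, against 0.266% of all CpGs 10-500. In monocytes 194 were called (7.09%, against 0.128% of all), and in fibroblasts 289 (10.6%, against 0.518% of all). A CpG near 0 or 100% can hardly be called, so CpGs intermediate in the same cell type but not in all 3 are the closer background. Of these, 4.78% were called in sperm, 1.34% in monocytes and 1.99% in the fibroblasts. The intervals for shares of CpGs, here and below, treat CpGs as independent of each other. All CpGs come from the same animals and close ones share reads, so these intervals may be too narrow and do not cover other animals.

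The median difference between the 2 animals was 19.3 points in sperm, 17.1 in monocytes and 18.3 in fibroblasts for the members. It was 13.8, 12.5 and 14.7 points for CpGs intermediate in that cell type but not in all 3. In 163 members (5.96%) 1 sperm library was at 10% or below and the other at 90% or above, against 1.81% of the other CpGs intermediate in sperm. The counts were 99 members (3.62%, against 0.553%) in monocytes and 47 (1.72%, against 0.123%) in fibroblasts. Calls did not favour 1 animal, since replicate 1 was higher in 179 of the 332 called members in sperm, in 91 of 194 in monocytes and in 152 of 289 in fibroblasts. A call was made in no cell type for 2087 members (76.3%) and in 1 for 496 (18.1%). Calls were made in 2 for 137 (5.01%) and in all 3 for 15 (0.548%). Over all CpGs tested, these shares were 99.2, 0.791, 0.0554 and 0.00326%. That background includes CpGs far from intermediate levels, which can hardly be called. Each test compared 2 animals and says nothing of the spread in the breed.

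Isolated members carried most of these calls. Of the isolated members, 15.5% were called in sperm, 9.56% in monocytes and 13.0% in fibroblasts. Of the members in runs, 5.36, 2.19 and 5.68% were called, which was near the 4.78, 1.34 and 1.99% of other intermediate CpGs in sperm and monocytes and above it in fibroblasts.

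Isolated members differed more from their nearest neighbours than CpGs intermediate in 1 cell type did. Of the 1559 isolated members with another CpG 10-500 at most 50 bp away, 31.8% had a nearest neighbour above 75% in all 3 cell types and 2.57% one below 25% in all 3. Over all CpGs 10-500 these shares were 26.6 and 40.9%, and for CpGs intermediate in fibroblasts only 27.7 and 3.17%, so that a methylated neighbour was nearly as frequent there. For CpGs intermediate in sperm only the shares were 10.1 and 2.30%, and for those intermediate in monocytes only 11.4 and 10.2%. The median difference to the nearest neighbour was 28.0 points in sperm, 28.4 in monocytes and 25.0 in fibroblasts. For members in runs it was 8.36, 10.9 and 12.8 points, a value that is lower in part because the neighbour is often a member itself (44.3%). CpGs intermediate in sperm only differed from their nearest neighbour by 11.9 points in sperm, those intermediate in monocytes only by 16.1 points in monocytes, and those intermediate in fibroblasts only by 16.7 points in fibroblasts. Isolated members cannot have a member as neighbour, which widens the contrast: over all 2735 members the differences were 21.3, 22.6 and 19.7 points.

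Of 766 isolated members with a CpG 10-500 within 50 bp on either side, 178 (23.2%) had both neighbours above 75% in all cell types and 8 had both below 25%. This group of 178, set apart after the values had been seen, held many values at both ends of the scale. In sperm replicate 1, 12.9% of them were at 10% or below, 50.0% at 25 to 75% and 30.9% at 90% or above, and 0.562% were between 10 and 25%. Fibroblast replicate 2 had 14.0, 65.2 and 12.4% in these ranges and 1.69% between 10 and 25%. The share between 75 and 90% went from 2.25% in sperm replicate 2 to 12.9% in fibroblast replicate 1. The other 4 libraries had 12.4 to 14.6% at the low end and 14.6 to 23.0% at the high end. The low end was thus filled to a like extent in all libraries, whereas the high end varied more.

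The 178 CpGs were called between the 2 animals in 57 cases (32.0%, interval 25.2 to 39.4%) in sperm, in 35 (19.7%) in monocytes and in 63 (35.4%) in fibroblasts. CpGs with the same surroundings that were intermediate in a single cell type were called in 24.3% of 857 cases in sperm, 6.63% of 966 in monocytes and 2.78% of 8835 in fibroblasts. These had a higher median level (66.0 to 67.9%, against 53.8 to 58.3% for the 178), and the part of this difference in level was not tested.

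**Figure D2:**
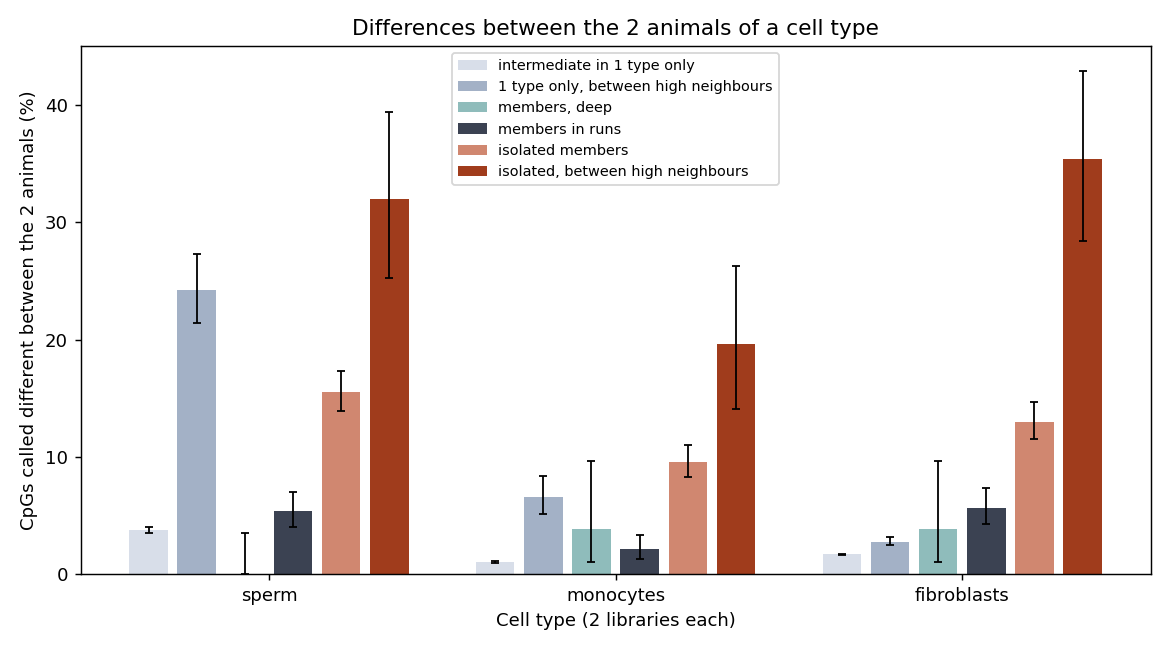
Share of CpGs called different between the 2 animals of a cell type (vertical axis, %) for CpGs intermediate in 1 cell type only, the same between 2 neighbours above 75%, members covered by at least 50 reads in all libraries (deep), members in runs, isolated members, and isolated members between 2 neighbours above 75%. Bars are shares and lines exact 95% confidence intervals, and the last set is highest in each cell type (32.0, 19.7 and 35.4%).

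The 4 most deeply covered of these 178 CpGs show how differently the libraries could be placed. They were picked by coverage after the values had been seen, and coordinates are those of the UMD3.1 build. On chromosome 1 at position 44926533, methylation was 55.4 and 60.4% in sperm, 80.0 and 41.7% in the monocytes and 42.5 and 47.6% in fibroblasts, from 30 to 105 reads. Its neighbours 5 and 17 bp away were between 91.7 and 100% in all 6 libraries. On chromosome 17 at position 73342839, the values were 41.4 and 100% in sperm, 45.7 and 44.8% in the monocytes and 0 and 66.7% in fibroblasts, from 29 to 35 reads. Its neighbours, 15 bp away on either side, were between 82.9 and 100%. In this CpG both monocyte libraries were close to each other, while each of the other cell types had a library at an end of the scale.

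On chromosome 29 at position 48124348, sperm had 0 of 36 reads methylated in replicate 1 and 100% of 27 reads in replicate 2. With 3 reads as an approximate upper limit for a count of 0, replicate 1 may lie as high as 8.33%. The same CpG had 37.5 and 96.2% in monocytes and 50.0 and 42.5% in fibroblasts, and its neighbours were at 88.2% or above except for a value of 65.0% in fibroblast replicate 2. On chromosome 11 at position 95435981, the values were 88.9 and 50.0% in sperm, 46.2 and 100% in the monocytes and 96.6 and 47.5% in fibroblasts. No library of that CpG was low, and each cell type had 1 library near 50% and 1 near the top.

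Members were strongly grouped along the chromosomes. Of the 12766 CpGs 10-500 found within 100 bp of a member, counted once per member, 14.5% were members, against 0.288% of all CpGs 10-500. The share was 22.1% at 6 to 10 bp, 15.1% at 21 to 50 bp, 10.3% at 51 to 100 bp and 3.46% at 501 to 1000 bp. CpGs of the same restriction fragment are read on the same reads (of 75 bp, from fragments of 40 to 290 bp), so close neighbours are no separate measurements. Members at most 1000 bp apart formed 307 runs of 2 or more, of which 275 held 2 to 4 members (672 in all) and 32 held 5 or more (243 in all). Members resembled their neighbours less than CpGs intermediate in 1 cell type did, by 19.9 against 11.5 points in sperm, 21.8 against 15.8 in monocytes and 20 against 16.9 in fibroblasts at 11 to 20 bp.

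**Figure D3:**
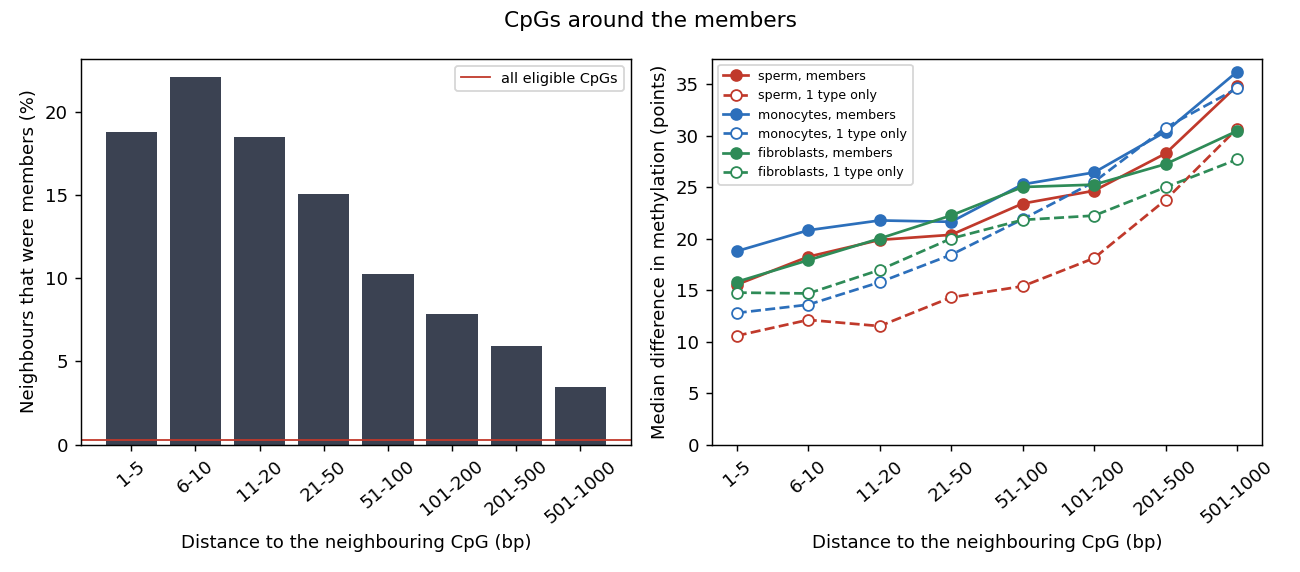
Left, share of neighbouring CpGs 10-500 that were members (vertical axis, %) by distance from a member (horizontal axis, bp), with the share over all CpGs 10-500 as a line. Right, median difference in methylation to the neighbour (points) for members (filled) and for CpGs intermediate in that cell type only (open); the share of members falls from 22.1% at 6 to 10 bp to 3.46% at 501 to 1000 bp.

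The region with the most members lay on chromosome 13 (chr13:58046218-58047699, UMD3.1), with 24 members among 58 CpGs 10-500 in 1482 bp. Mean methylation of its members was 40.0 and 42.2% in sperm, 47.6 and 53.4% in the monocytes and 43.0 and 48.8% in fibroblasts, and no member was called between animals. The means of the replicates were 2.21, 5.79 and 5.80 points apart, but differences of opposite sign cancelled in them. At single members the replicates differed by a median of 15.6 points in sperm, 10.4 in monocytes and 6.21 in fibroblasts, and by up to 30.9, 46.2 and 28.9 points. Among all 58 CpGs, none was below 25% or above 75% in monocytes (32.6 to 71.0%) or in fibroblasts (27.5 to 57.5%). In sperm 34 of the 58 were below 25%, the median was 18.4% and the highest 72.5%. The members were thus scattered, in sperm, between CpGs of lower methylation, within a region that was intermediate throughout in the somatic cells. A further run of 8 members began shortly downstream (chr13:58049091-58049275), with 46.8 and 49.0% in sperm, 29.4 and 38.2% in the monocytes and 57.6 and 39.1% in fibroblasts. In that run 7 of 15 CpGs were below 25% in sperm and none was in the somatic cells.

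In the next 3 regions by number of members, sperm replicate 1 was above sperm replicate 2 at every member, whereas neither somatic cell type had a constant sign. Close members of a region share reads, so these counts of members are no separate measurements of the 2 animals. On chromosome 18 (chr18:55614657-55616612, 17 members among 30 CpGs), mean methylation was 83.0% in sperm replicate 1 and 30.7% in sperm replicate 2. It was 56.7 and 61.4% in monocytes and 44.6 and 60.1% in fibroblasts. Sperm replicate 1 was above replicate 2 at 17 of 17 members, by 34.5 to 81.7 points, yet 1 member was called, with a median coverage of 20 and 15 reads in sperm. On chromosome 6 (chr6:109070291-109070634, 15 members among 24 CpGs), the means were 58.1 and 16.3% in sperm, 63.5 and 58.9% in the monocytes and 41.5 and 53.9% in fibroblasts. Sperm replicate 1 was higher at 15 of 15 members, by 12.6 to 60.8 points with a mean of 41.8, and no member was called. The fibroblast libraries also differed there by up to 59.8 points, but replicate 1 was higher at 6 members and replicate 2 at 9. On chromosome 25 (chr25:26214375-26214843, 12 members among 13 CpGs), the means were 79.9 and 42.2% in sperm, 58.1 and 52.1% in the monocytes and 52.6 and 47.6% in fibroblasts, with sperm replicate 1 higher at 12 of 12 by 17.9 to 47.6 points. The sperm level used to choose the members of these regions was thus a sum over 2 samples that differed in this way.

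**Figure D4:**
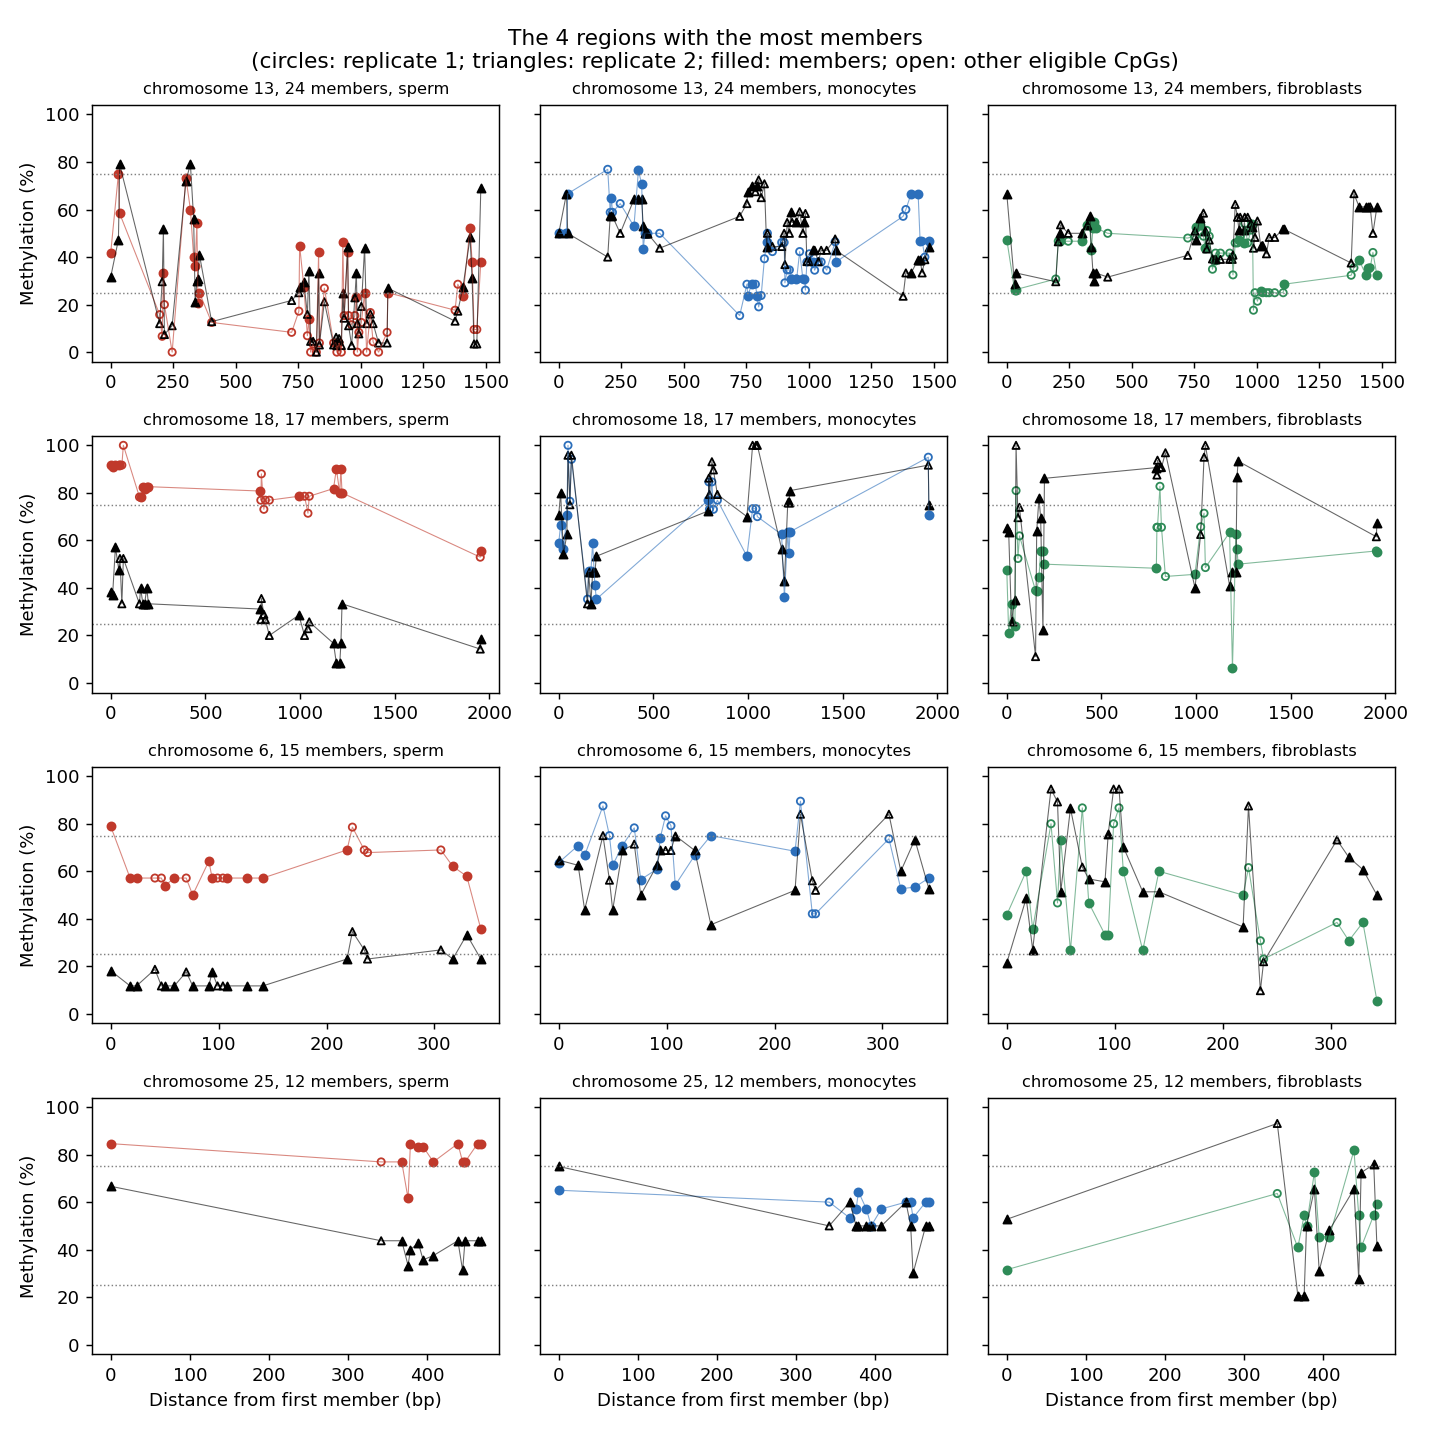
Methylation (vertical axis, %) along the 4 regions with the most members by distance from the first member (horizontal axis, bp), with circles for replicate 1, triangles for replicate 2, filled symbols for members and open symbols for other CpGs 10-500. Dotted lines mark 25 and 75%. Sperm replicate 1 is above replicate 2 at all members on chromosomes 18, 6 and 25, by as little as 12.6 points on chromosome 6, and at 10 of 24 members on chromosome 13.

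The region on chromosome 19 (chr19:44470819-44471190, 11 members among 17 CpGs) had 65.4 and 55.8% in sperm, 40.4 and 32.7% in the monocytes and 50.8 and 50.7% in fibroblasts, with no member called. The library means of its 3 cell types did not overlap, whereas in every other region named here those of some cell types did. How often such a separation arises without a difference between cell types was not tested. The levels had also been used to choose the members, and close members share reads. The region on chromosome 22 at chr22:54149906-54150014 (9 members) was lower in sperm (31.1 and 42.1%) and monocytes (40.6 and 27.0%) than in fibroblasts (81.8 and 56.7%). Another on the same chromosome (chr22:58649276-58649654, 8 members among 29 CpGs) had 54.9 and 71.9% in sperm, 60.4 and 49.1% in the monocytes and 67.9 and 59.7% in fibroblasts, and 18 of its 29 CpGs were above 75% in fibroblasts. A second region on chromosome 18 (chr18:18248674-18249217, 8 members) had 33.7 and 28.2% in sperm, 46.2 and 26.8% in the monocytes and 36.0 and 49.4% in fibroblasts. The region on chromosome 4 (chr4:117788403-117788484, 7 members among 8 CpGs) had 81.5 and 53.1% in sperm, 45.0 and 70.7% in the monocytes and 61.0 and 64.7% in fibroblasts. In these 5 regions no member was called between animals.

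Gaps between the 2 animals over a whole run were found in all cell types. Among the 32 runs of 5 or more members, the mean of the members differed by at least 25 points between the 2 animals in 7 runs for sperm, 4 for monocytes and 7 for fibroblasts, and in 14 runs for any cell type. The median gap was 10.0, 11.5 and 15.1 points. The highest gap in sperm was 79.6 points on chromosome 18 (chr18:63697389-63697741, 5 members, all 5 called), where the means were 100 and 20.4% in sperm, 56.8 and 52.8% in the monocytes and 49.1 and 43.8% in fibroblasts. The highest in monocytes was 47.7 points on chromosome 12 (chr12:12071043-12071105, 7 members, 5 of them called), with 37.1 and 84.8%. In fibroblasts it was 49.6 points on chromosome 22 (chr22:59558014-59558073, 7 members, 5 of them called), with 61.8 and 12.1%. These 3 runs were chosen after their values had been seen.

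The most deeply covered members are described apart. Every library had at least 50 reads at 103 members (3.77%), against 1.20% of the other CpGs 10-500. The share of CpGs that were members was 0.299% where the lowest coverage among the libraries was 10 to 14 reads, 0.234% at 20 to 29 reads, 0.708% at 30 to 49 and 0.900% (interval 0.735 to 1.09%) at 50 or more. Intermediate methylation in each cell type was also most frequent at 50 reads or more, with 29.2% of these CpGs for sperm, 19.4% for monocytes and 53.6% for fibroblasts.

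At these 103 members, mean methylation was 34.6 and 31.6% in sperm, 66.2 and 66.4% in the monocytes and 58.3 and 56.9% in fibroblasts. Sperm was the lowest cell type at 92 of them (89.3%), against 1117 of all 2735 members (40.8%). The order of sperm below fibroblasts below monocytes held at 79 (76.7%), against 711 of all members (26.0%). The median difference between the 2 animals was 5.64 points in sperm, 6.01 in monocytes and 6.16 in fibroblasts, with a median of 274 to 359 reads summed over the 2 libraries against 39 to 55 for all members. Set against the variance that counting alone gives, the squared difference was on average 2.24 times as large in sperm, 4.92 in monocytes and 4.97 in fibroblasts, against 6.81, 5.06 and 5.91 for all members. The smaller difference in points in the somatic cells thus went with more reads. By Fisher's exact test 0 members were called in sperm, 4 (3.88%) in monocytes and 4 (3.88%) in fibroblasts, against 0.266, 0.128 and 0.518% of all CpGs 10-500. Of CpGs intermediate in that cell type but not in all 3, 4.78, 1.34 and 1.99% were called, at a median of 46, 40 and 55 summed reads. A background of like coverage was not computed, so the part of depth in these shares was not tested. The 103 members were found on 23 chromosomes, with 16 on chromosome 8 and 11 on chromosome 29. The deepest, on chromosome 29 at position 19408660, had 37.2 and 31.7% in sperm, 73.3 and 76.2% in the monocytes and 75.1 and 69.7% in fibroblasts from 293 to 412 reads. A second at position 19449562 of the same chromosome had 29.1 and 23.4%, 74.7 and 71.1%, and 60.6 and 61.0% in the same order. In both, the 2 sperm libraries lay below all 4 somatic libraries.

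**Figure D5:**
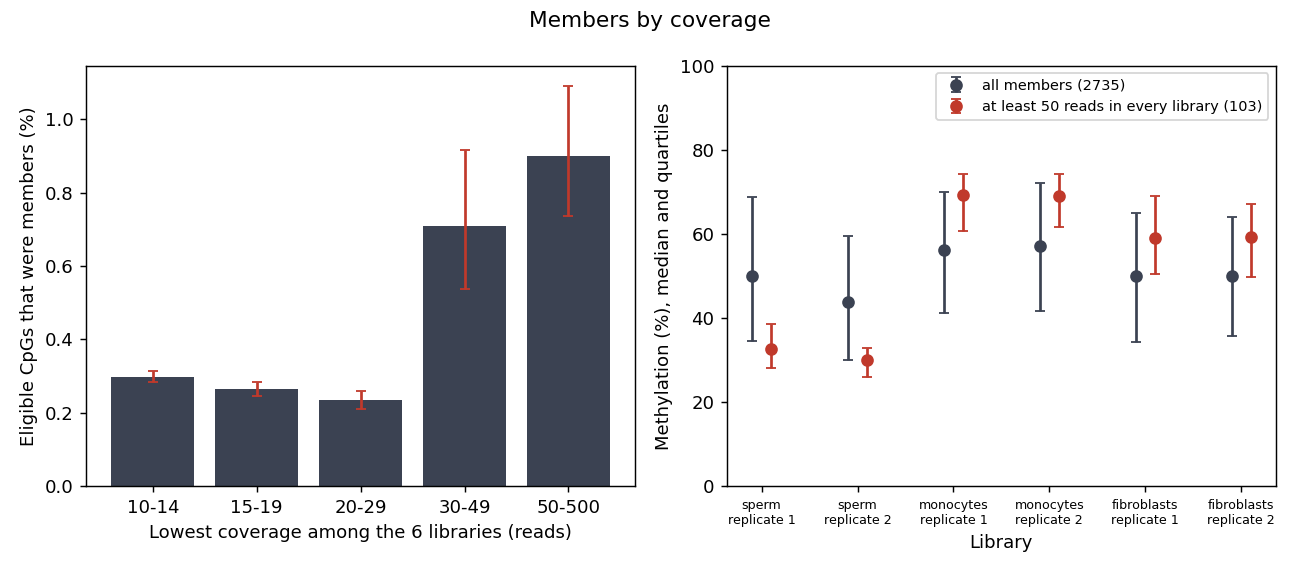
Left, share of CpGs 10-500 that were members (vertical axis, %) by the lowest coverage among the 6 libraries (horizontal axis, reads), with exact 95% confidence intervals. Right, median and quartiles of methylation (%) per library for all members and for the 103 members with at least 50 reads in every library, which are lower in sperm and higher in monocytes than all members.

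Coverage, beyond its limits, was not used to choose the members. Their median coverage was 20 and 23 reads in sperm, 22 and 17 reads in monocytes and 25 and 30 in fibroblasts, equal to that of the other CpGs 10-500 in 5 libraries and 1 read lower in monocyte replicate 2. The log2 ratio of the medians was -0.01 on average over the 6 libraries. It was other than 0 in monocyte replicate 2 alone, so the exact two-sided sign-flip permutation test had a fixed outcome and decides nothing. The ratio of mean coverage was higher, from 0.20 to 0.27 on the log2 scale in 6 of 6 libraries (mean 0.23, p = 0.03125 by the same exact test, the smallest it can give). At least 1 library had over 100 reads at 165 members (6.03%), against 1.79% of the other CpGs. At 20 to 500 reads in all libraries the ratio of medians was 0.16 as well (p = 0.03125, exact sign-flip test), so that the absence of a difference in medians depended on the minimum coverage. The ratio of medians differed by 0.02 on the log2 scale between sperm and somatic libraries. With monocyte replicate 2 alone other than 0, the exact permutation test had a fixed outcome here too and decides nothing.

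The members lay where CpGs were sparse. They had a median of 4 other CpGs 10-500 within 100 bp, against 6 for the other CpGs, and 4 for CpGs intermediate in 1 cell type. The share of CpGs that were members fell from 0.522% among CpGs without any such neighbour to 0.347% with 4 to 7, 0.135% with 8 to 15 and 0.0337% with 16 or more. Over the same classes, the share intermediate in sperm fell from 6.39% to 0.868% and that in fibroblasts from 39.4% to 4.24%. By chromosome, members made up from 0.194% of the CpGs 10-500 on chromosome 1 to 0.430% on chromosome 4. In the last 5 Mb listed of the autosomes the share was 0.349% and in the first 5 Mb 0.328%, against 0.261% between them.

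Membership was recovered in part in animals that had not been used to choose. When the same limits were applied to replicate 1 of each cell type alone, 2376 CpGs were intermediate in all 3. Of these, 491 (20.7%, interval 19.1 to 22.3%) were also intermediate in all 3 cell types in replicate 2, against 0.243% of all CpGs 10-500. Starting from replicate 2, 491 of 2309 (21.3%) were intermediate in all 3 in replicate 1. By cell type, 55.6% of these 2309 were intermediate in sperm replicate 1, 55.0% in monocyte replicate 1 and 67.9% in fibroblast replicate 1, against 4.19, 7.32 and 19.4% of all CpGs 10-500.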

How the data were processed

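Per the labels and the study's methods, genomic DNA was digested with MspI, and the fragments were selected for size, bisulfite-converted and sequenced in pairs. The submitters' processing notes name FastQC, Trim Galore 0.3.7, Bismark 0.14.3, Bowtie and methylKit, and the UMD3.1 build. The authors deposited, for each library and CpG, the coverage as a read count and the percent of reads with C and with T. All positions were listed on 1 strand without adjacent positions, so both strands had been merged, and a comparison of strands could not be made. Duplicate reads cannot be recognised in such libraries.

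Methylated reads were computed as coverage times percent, rounded. Positions on chromosomes 1 to 29 with 10 to 500 reads in all 6 libraries were kept, out of 2115332 listed in all 6. Fisher's exact test was two-sided, with Benjamini-Hochberg adjustment over the 950004 CpGs per cell type. The code was tested on simulated data. Alternatives were other limits of coverage and methylation, a likelihood-ratio test, other thresholds and distances, a replicate block and leaving out each library. Runs joined members at most 1000 bp apart. The regions named are the 10 with the most members (6 runs tied at 7 members, of which the first in genome order was taken), which include the 3 with at least 10 members and the highest share called and the 3 with the smallest spread over libraries. Of those 3 with the highest share called, only chr18:55614657-55616612 had any call (1 of 17 members). The others had 0 calls, as had the remaining regions of at least 10 members. Other CpGs and runs named were chosen after their values were seen. The members, comparisons and lists were chosen with earlier results of these data known. No gene is named, since no annotation of UMD3.1 was used here. Python 3.11.15, numpy 2.4.6, scipy 1.17.1, pandas 2.3.3 and numba 0.67.0 were used.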

Additional observations from a re-analysis of the deposited data

Results flagged for a closer look

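CpGs intermediate in all 3 cell types were also found among positions that the choice of members left out. On the X chromosome, 51 of 12539 CpGs with 10 to 500 reads (0.407%, exact 95% interval 0.303 to 0.534%) were intermediate in all 3 cell types, with 32.2% intermediate in monocytes and 6.11% in sperm. On unplaced sequences, 51 of 6238 CpGs (0.818%, interval 0.609 to 1.07%) were. Of the autosomal CpGs with over 500 reads in all 6 libraries, 47 of 4483 (1.05%, interval 0.771 to 1.39%) were, and the median of these 47 was 28.8% for sperm, 73.1% for monocytes and 63.8% for fibroblasts.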

How the results depend on the processing

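The number of members followed the limits: 4729 at 5 to 500 reads, 522 at 20 to 500 reads, 5910 at 20 to 80%, 1215 at 30 to 70%, 158 at 40 to 60% and 491 when every library had to be intermediate, in place of 2735. It ranged from 2524 to 2946 when 1 library was left out. The share of members among neighbours within 1000 bp was 8.63%, in place of 14.5% within 100 bp. The ratio of coverage turned from -0.01 to 0.23 on the log2 scale with means and to 0.16 at 20 to 500 reads (both p = 0.03125, exact sign-flip test), and lay between -0.02 and 0 with 1 library left out. The difference in this ratio between sperm and somatic cells was -0.0269 with means and between 0 and 0.03 with 1 library left out. With a replicate block (permutation within replicate numbers), it stayed at 0.0206, and the exact permutation test again had a fixed outcome. The numbers in the labels name different animals, so they pair nothing.

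Of 54 recalculations, 31 others kept a count or share of members within 1.5 times or a test on the same side of 0.05, among them all settings of the differences between animals and of the held-out replicates. In 13 more the test could not pass 0.05 by design, which says nothing of stability. The smallest p that 5 sign flips can give is 0.0625. For the exact permutation test of sperm against somatic libraries it is 0.0667 with 2 against 4, and higher with 1 library left out or a replicate block. The shares of other CpGs moved more: those intermediate in fibroblasts but not in all cell types were called in 4.28% at an adjusted p below 0.05 (members 14.4%) and in 3.29% by the likelihood-ratio test (members 13.2%), in place of 1.99% (members 10.6%). In monocytes they were called in 2.32% by the likelihood-ratio test (members 10.6%), in place of 1.34%. At 30 to 70%, the held-out share was 14.5%, against 0.111% of all CpGs. Leaving out a library was not possible for the differences between animals, which rest on 2 libraries. Strands were not compared. Coverage near 20 reads limits single CpGs: gaps of 37.7 to 52.3 points over whole regions gave 1 call in 44 members, many of which share reads.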
